A study of Mus musculus with 8 samples.

Results

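Aminoacyl-tRNA synthetases were followed in 8 pieces of MT-ret mouse melanoma, 4 from mice given an antibody to angiopoietin-2 (anti-Ang2) and 4 from mice given control IgG. The list named 36 synthetase genes, 20 of the cytosolic set and 16 of the mitochondrial set, and was defined by gene name. Of these, 34 were measured on a probe set that names 1 gene, 18 cytosolic and 16 mitochondrial, among 22836 such genes on the array. Aars and Kars, the alanine and lysine enzymes, lay on probe sets shared with another gene (Exosc6 and LOC631033) and are kept out of the counts.

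MT-ret is a transgenic melanoma model in which a metallothionein promoter drives the Ret oncogene. All 8 tumours had grown from MT-ret fragments grafted ventrally, on the flank, into C57BL/6N mice, so the tumour was a graft and not a spontaneous lesion. Antibody, anti-Ang2 or IgG, was begun on day 7 after grafting and ended when the primary tumour was removed. The comparison asks how transcript levels of the tumour differ between these antibodies. The labels number each tumour but do not state which animal it came from, so p-values measure the spread between these tumours.

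Aminoacyl-tRNA synthetases join each amino acid to its matching tRNA, the step at which the genetic code is read. Mammalian cells keep a cytosolic set and a separate, nuclear-encoded set that is imported into mitochondria, while Gars and Kars each supply both compartments from a single gene. Several cytosolic enzymes sit together in the multi-synthetase complex, held by the scaffold proteins Aimp1, Aimp2 and Eef1e1. When charged tRNA runs short, the kinase Gcn2 (Eif2ak4) phosphorylates eIF2, translation of the transcription factor ATF4 increases, and ATF4 acts on genes of amino acid supply that include many cytosolic synthetases.

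ATF4 binds C/EBP-ATF elements, so the promoters of the synthetases were read for the letters TGATGNAA on both strands. RefSeq promoter windows of the GRCm38.p6 assembly, from 250 bases before to 50 bases after each start, were present for 25 of the 34 measured synthetases, 11 cytosolic and 14 mitochondrial. The element was found for 4 of 11 cytosolic genes (36.4%) and for 0 of 14 mitochondrial genes, and for 4.51% of all 27025 genes of the table. The 4 windows that held it are shown 5′ to 3′ on the strand of the gene, with the element in capitals and 22 bases to either side. They lie at chr6:55037949-55038000 on the plus strand for Gars, chr13:49682115-49682166 on the plus strand for Iars, chr15:11399644-11399695 on the minus strand for Tars and chr4:129189884-129189935 on the plus strand for Yars. In Gars, Iars and Tars the match reads on the strand opposite to the gene, and in Yars on the strand of the gene.
Gars: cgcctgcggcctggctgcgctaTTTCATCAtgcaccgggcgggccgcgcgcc
Iars: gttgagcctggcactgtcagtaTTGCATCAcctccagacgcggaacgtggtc
Tars: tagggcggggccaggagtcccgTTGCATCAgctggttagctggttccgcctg
Yars: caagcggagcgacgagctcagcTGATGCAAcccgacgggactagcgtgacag

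The element began 30 bases before the annotated start in Gars and 15 bases before it in Tars, and lay at the 8th base after the start in Iars and at the 4th in Yars. A match is a description of the letters in these windows and not a binding site. The differences of these 4 genes between anti-Ang2 and IgG tumours, in log2 units, were 0.06 for Gars, 0.11 for Iars, 0.18 for Tars and 0.05 for Yars. Their limma adjusted p-values lay between 0.756 for Tars and 0.950 for Gars. Cytosolic genes with a window but no element were Sars (0.35), Eprs (0.25), Qars (0.14), Farsb (0.13), Mars (0.09), Dars (0.07) and Farsa (-0.22). Cars, Hars, Lars, Nars, Rars, Vars and Wars of the cytosolic set had no window and were not searched. The NRF1 motif CGCNTGCG, known from promoters of mitochondrial genes, was found for 5 of 11 cytosolic genes, 4 of 14 mitochondrial genes and 9.22% of all genes of the table. The mitochondrial windows with it were those of Iars2, Mars2, Vars2 and Wars2, and the cytosolic ones those of Farsa, Farsb, Gars, Mars and Tars. The interferon response element core GAAANNGAA was found for 1 cytosolic gene, Qars, for 0 mitochondrial genes and for 9.76% of all genes of the table.

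The deposited intensities were read on the log2 scale, where a difference of 1 is a doubling. The 8 arrays had medians of 6.09 to 6.15 and correlated with each other at 0.967 to 0.988. All 10 melanocytic markers were above the median gene mean of 6.10, with Tyrp1, of pigment synthesis, reading 12.82 under anti-Ang2 and 12.60 under IgG. Of these 10, 7 had a positive difference, with a median of 0.06, and none passed the adjusted threshold. None of the 7 measured T cell markers had a mean above that median. In RNA from whole tumour pieces, fewer cells of a type and less RNA per cell cannot be told apart. Of all 22836 genes, 53.6% had a positive difference, with a median of 0.01. The lowest adjusted p over all genes was 0.254 in limma.

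No synthetase passed the limma threshold of an adjusted p under 0.05, and neither did any other gene on the array (0%). The count at an unadjusted p under 0.05 was 3 of 34 synthetases: Sars and Lars2 were higher and Farsa was lower in anti-Ang2 tumours. Among all genes 934 were higher at that level (4.09%) and 685 were lower (3%), so that the share of synthetases, 2 higher and 1 lower of 34, stood near this background. In no synthetase were the 4 anti-Ang2 values all above or all below the 4 IgG values, against 854 such genes of all those tested (3.74%). The 95% interval of the difference held 0 in 31 of the 34 synthetases. For 32 of the 34 that interval lay within 1.5-fold in either direction; the upper bound was 1.56-fold for Sars and 1.58-fold for Fars2. Standard errors ran between 0.09 and 0.19 log2 units.

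**Figure D1:**
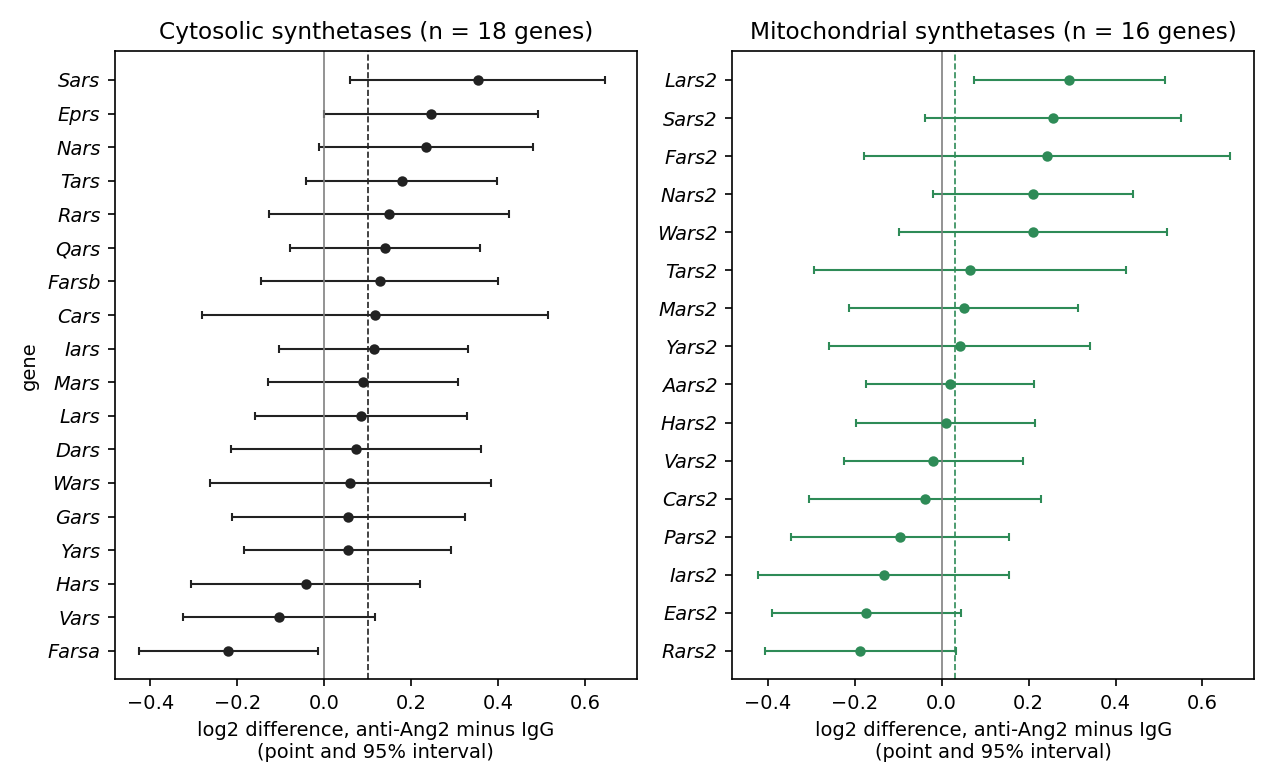
Log2 difference between anti-Ang2 and IgG tumours for each of the 18 cytosolic (left) and 16 mitochondrial (right) synthetases, as points with 95% intervals from limma and genes sorted by difference. Dashed lines mark the median of each set, 0.10 and 0.03, and only the intervals of Sars, Farsa and Lars2 leave out 0.

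Of the cytosolic enzymes, 15 of 18 had a positive difference (83.3%), with a median of 0.10 and a range of -0.22 to 0.35. All genes with a mean above the median gene, a set not matched to these enzymes in brightness, were positive in 49.0% of cases. Their median was -0.00. The cytosolic median depended on single tumours: leaving out anti-Ang2 replicate 3 gave 0.050, leaving out IgG replicate 2 gave 0.07 and leaving out IgG replicate 3 gave 0.19. The count of positive differences was 14 or 15 when any 1 tumour was left out. None of these 18 differences passed the threshold, and the lowest adjusted p among them was 0.670 in limma.

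Sars, the cytosolic seryl-tRNA synthetase on chromosome 3, had the largest positive difference of the cytosolic set. Its log2 intensity was 11.16, 11.07, 10.91 and 10.60 in anti-Ang2 replicates 1 to 4, against 10.71, 10.34, 10.71 and 10.58 in IgG replicates 1 to 4. Anti-Ang2 replicates 1 to 3 lay above every IgG tumour, while anti-Ang2 replicate 4 lay among the IgG tumours, and IgG replicate 2 was the lowest of all. The means were 10.94 ± 0.24 under anti-Ang2 and 10.58 ± 0.17 under IgG (SD, n = 4 each). The difference was 0.35 (SE 0.13, 95% interval 0.06 to 0.64), or 1.28-fold, with a limma unadjusted p of 0.0224 and an adjusted p of 0.670. Over the 8 fits that each left out 1 tumour, the unadjusted p stayed under 0.05 in 5. The authors' deposited table gave a ratio of 1.28 and an unadjusted p of 0.0658 for Sars.

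Farsa, the catalytic alpha subunit of cytosolic phenylalanyl-tRNA synthetase on chromosome 8, was the cytosolic member with the most negative difference. Its log2 intensity was 7.08, 7.07, 6.95 and 7.19 in anti-Ang2 replicates 1 to 4, against 7.45, 7.30, 7.14 and 7.29 in IgG replicates 1 to 4. IgG replicate 3, the lowest IgG tumour, read below anti-Ang2 replicate 4, so the groups overlapped at that point. The means were 7.07 ± 0.10 under anti-Ang2 and 7.29 ± 0.13 under IgG (SD, n = 4 each). The difference was -0.22 (SE 0.09, 95% interval -0.43 to -0.02), with a limma unadjusted p of 0.0376 and an adjusted p of 0.697, and the unadjusted p stayed under 0.05 in 2 of the 8 fits without 1 tumour. Farsb, the beta subunit of the same enzyme, had a difference of 0.13 (SE 0.12), with 8.12 ± 0.22 under anti-Ang2 and 8.00 ± 0.16 under IgG (SD, n = 4 each); the difference between the subunits was not tested.

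The 7 measured cytosolic enzymes of the multi-synthetase complex all had positive differences, against 53.6% of all genes. Their median was 0.11, with a range of 0.07 to 0.25, and none passed the threshold. Kars, whose shared probe set had a difference of 0.01, is not among these 7. Eprs, which charges tRNAs with both glutamate and proline, had the largest, 9.88 ± 0.21 under anti-Ang2 against 9.63 ± 0.10 under IgG (SD, n = 4 each), a difference of 0.25 (SE 0.11). The others, in falling order, were Rars for arginine (0.15), Qars for glutamine (0.14), Iars for isoleucine (0.11), Mars for methionine (0.09), Lars for leucine (0.08) and Dars for aspartate (0.07). Qars was the most even member within anti-Ang2 tumours, at 9.11 to 9.16, against 8.77 to 9.17 in IgG tumours. In human cells Lars is also known as a leucine sensor upstream of mTORC1, and Eprs as part of a complex that controls translation of inflammatory transcripts.

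Of the 11 measured cytosolic enzymes outside the complex, 8 had positive differences, with a median of 0.06. Nars, the asparagine enzyme, came after Sars at 0.23 (SE 0.11), with 10.50 ± 0.17 under anti-Ang2 and 10.26 ± 0.16 under IgG (SD, n = 4 each). Tars for threonine stood at 0.18 (SE 0.10) and Cars for cysteine at 0.12 (SE 0.18). Cars had the widest spread of the cytosolic set, at 7.80 to 8.30 in anti-Ang2 and 7.37 to 8.20 in IgG tumours. Wars for tryptophan, which is induced by interferon-gamma, stood at 0.06 (SE 0.15), Gars for glycine at 0.06 (SE 0.12) and Yars for tyrosine at 0.05 (SE 0.11). Negative differences belonged to Hars for histidine (-0.04), Vars for valine (-0.10) and Farsa. The array annotation of Qars, Vars, Yars and Vars2 was cut short in the deposited table, so a further gene name on those probe sets would not be seen.

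The shared probe set of Aars and Exosc6 read 8.54 ± 0.07 under anti-Ang2 and 8.60 ± 0.14 under IgG, a difference of -0.06 (SE 0.09). That of Kars and LOC631033 read 9.78 ± 0.09 under anti-Ang2 and 9.76 ± 0.17 under IgG (SD, n = 4 each for both), a difference of 0.01 (SE 0.10). The catalytic classes, which differ in the fold of the active site, gave a median of 0.09 over 9 cytosolic class I enzymes and 0.10 over 8 class II enzymes, with Eprs, which holds both, in neither.

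**Figure D2:**
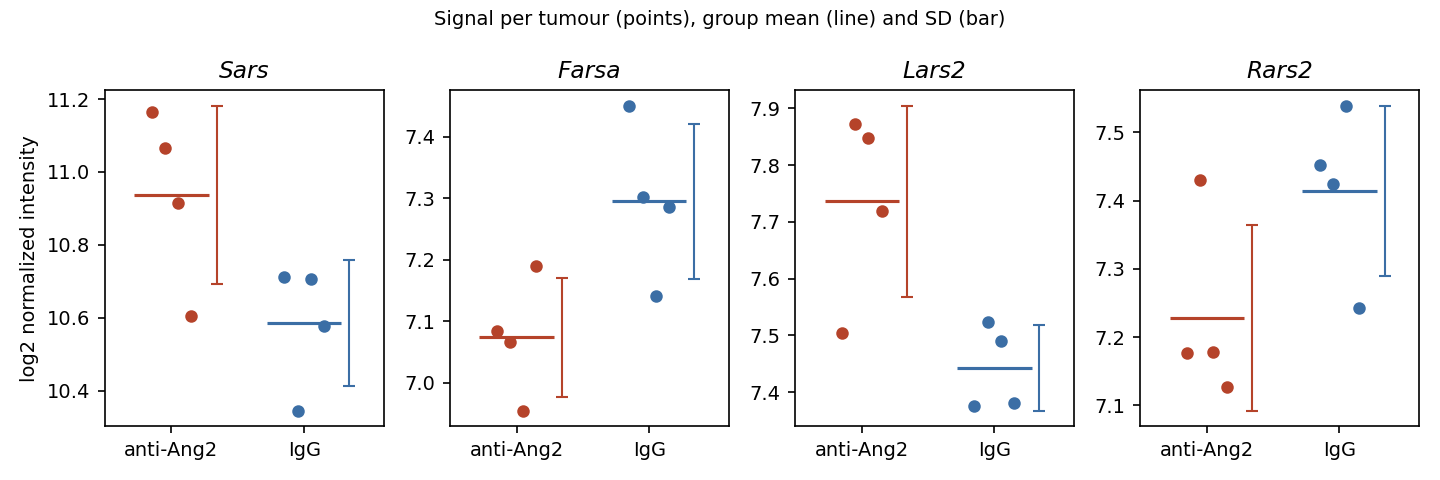
Log2 normalized intensity of Sars, Farsa, Lars2 and Rars2 in each tumour (points), with the group mean (line) and SD (bar), anti-Ang2 left and IgG right, n = 4 each. Each panel has its own axis range, and in every panel at least 1 anti-Ang2 tumour lies within the range of the IgG tumours.

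Of the mitochondrial enzymes, 10 of 16 had a positive difference (62.5%), with a median of 0.03 and a range of -0.19 to 0.29. Left-out tumours moved that median to between -0.00 (anti-Ang2 replicate 3 left out) and 0.05 (IgG replicate 2 left out), and the count of positive differences to between 7 and 10. Leaving out anti-Ang2 replicate 1 gave 0.02, and the median was 0.01 when IgG replicate 1, IgG replicate 4 or else anti-Ang2 replicate 2 was left out. The lowest adjusted p among these enzymes was 0.654 in limma, that of Lars2.

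Lars2, the mitochondrial leucyl-tRNA synthetase on chromosome 9, had the largest positive difference of the mitochondrial set. Its log2 intensity was 7.50, 7.87, 7.85 and 7.72 in anti-Ang2 replicates 1 to 4, against 7.38, 7.52, 7.49 and 7.38 in IgG replicates 1 to 4. Anti-Ang2 replicates 2 to 4 lay above every IgG tumour, and anti-Ang2 replicate 1 lay just below IgG replicate 2. The means were 7.74 ± 0.17 under anti-Ang2 and 7.44 ± 0.08 under IgG (SD, n = 4 each). The difference was 0.29 (SE 0.10, 95% interval 0.07 to 0.51), or 1.23-fold, with a limma unadjusted p of 0.0134 and an adjusted p of 0.654. Its unadjusted p stayed under 0.05 in 8 of 8 fits without 1 tumour, while its adjusted p ran between 0.505 and 0.864 in them. The authors' deposited table gave a ratio of 1.23 and an unadjusted p of 0.0377 for Lars2.

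Rars2, the mitochondrial arginyl-tRNA synthetase on chromosome 4, had the most negative difference of the mitochondrial set. Its log2 intensity was 7.18, 7.43, 7.18 and 7.13 in anti-Ang2 replicates 1 to 4, against 7.45, 7.43, 7.54 and 7.24 in IgG replicates 1 to 4. Anti-Ang2 replicates 1, 3 and 4 lay below every IgG tumour, and anti-Ang2 replicate 2 lay among the IgG tumours. The means were 7.23 ± 0.14 under anti-Ang2 and 7.41 ± 0.12 under IgG (SD, n = 4 each), a difference of -0.19 (SE 0.10, 95% interval -0.41 to 0.03). The limma unadjusted p was 0.0883 and the adjusted p 0.743.

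After Lars2, the highest mitochondrial differences were those of Sars2 for serine (0.26, SE 0.13), Fars2 for phenylalanine (0.24, SE 0.19), Nars2 for asparagine (0.21, SE 0.10) and Wars2 for tryptophan (0.21, SE 0.14). Fars2 had the largest SE of all 34, since anti-Ang2 replicate 1 read 8.16 and the other anti-Ang2 tumours 7.09 to 7.55, against 7.18 to 7.38 in IgG tumours. Between 0.01 and 0.06 stood Hars2, Aars2, Yars2, Mars2 and Tars2, the enzymes of histidine, alanine, tyrosine, methionine and threonine. Below 0, beside Rars2, stood Vars2 for valine (-0.02), Cars2 for cysteine (-0.04), Pars2 for proline (-0.10), Iars2 for isoleucine (-0.13) and Ears2 for glutamate (-0.17). Mitochondrial class I enzymes had a median of -0.02 over 9 genes and class II enzymes a median of 0.06 over 7 genes.

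The median difference of the cytosolic set exceeded that of the mitochondrial set by 0.07 log2 units. Leaving out IgG replicate 2 gave a gap of 0.02, leaving out anti-Ang2 replicate 2 gave 0.13 and leaving out IgG replicate 3 gave 0.15. The sets also read at unlike signal levels. Group means ran from 7.07 (Farsa, anti-Ang2) to 10.94 (Sars, anti-Ang2) in the cytosolic set. In the mitochondrial set they ran from 6.28 (Pars2, anti-Ang2), close to the median gene mean of 6.10, to 8.66 (Iars2, IgG). The part of signal level in the gap was not tested. Per tumour, the mean of the cytosolic enzymes, each taken relative to its own mean over the 8 tumours, was 0.05, -0.03, 0.13 and 0.04 in anti-Ang2 replicates 1 to 4, against -0.07, -0.14, 0.09 and -0.06 in IgG replicates 1 to 4. IgG replicate 3 stood inside the anti-Ang2 range and IgG replicate 2 was the lowest tumour. Group means of this value were 0.05 ± 0.07 under anti-Ang2 and -0.05 ± 0.10 under IgG (SD, n = 4 each).

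The mitochondrial set on the same scale gave 0.01, 0.09, 0.02 and -0.04 in anti-Ang2 replicates 1 to 4, against -0.04, -0.04, 0.02 and -0.03 in IgG replicates 1 to 4. The groups overlapped, with means of 0.02 ± 0.05 under anti-Ang2 and -0.02 ± 0.03 under IgG (SD, n = 4 each). Cytosolic minus mitochondrial, the value was 0.02 ± 0.10 under anti-Ang2 and -0.02 ± 0.07 under IgG (SD, n = 4 each), a difference of 0.05 that is smaller than either spread. Anti-Ang2 replicate 2 was the tumour where the sets parted most: 5 of 18 cytosolic enzymes and 11 of 16 mitochondrial enzymes lay above their own mean there. In anti-Ang2 replicate 3 it was 15 of 18 and 8 of 16, and in IgG replicate 2 it was 1 of 18 and 5 of 16.

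**Figure D3:**
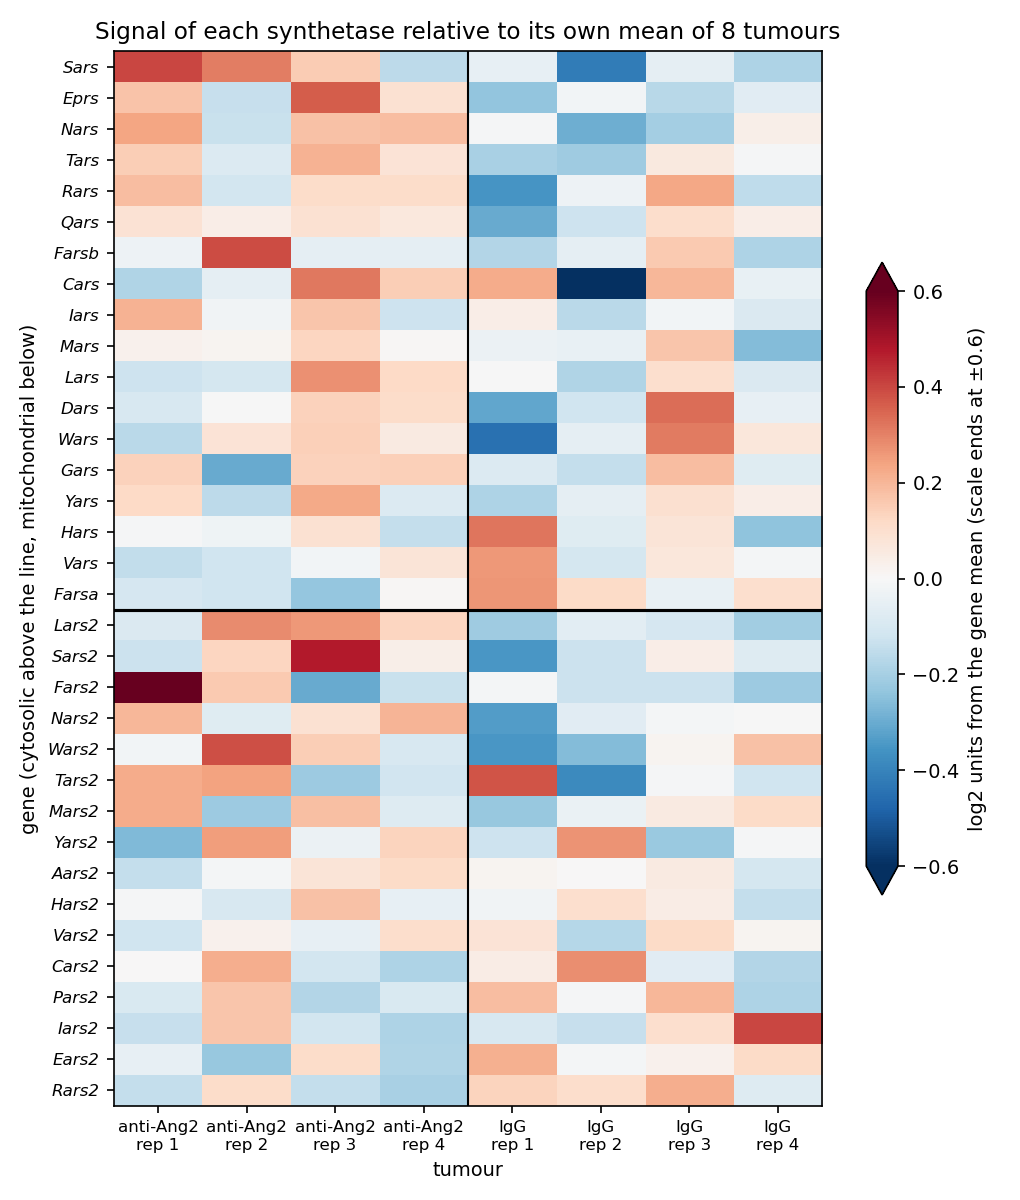
Log2 intensity of each measured synthetase relative to its own mean over 8 tumours, one row per gene (cytosolic above the line, mitochondrial below, sorted by difference) and one column per tumour, anti-Ang2 left and IgG right. The colour scale ends at 0.6 either way; most cytosolic rows are above their mean in anti-Ang2 replicate 3 and IgG replicate 3, and below it in IgG replicate 2.

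Enzymes for the same amino acid could be set side by side in 16 pairs, made of 15 cytosolic and 15 mitochondrial genes, since Eprs faces both Ears2 and Pars2 and Fars2 faces both subunits of the cytosolic enzyme. The differences had the same sign in 9 pairs, both positive in 8 and both negative in 1, Vars with Vars2. Serine and asparagine were the amino acids with both partners above 0.20: Sars at 0.35 with Sars2 at 0.26, and Nars at 0.23 with Nars2 at 0.21. In 5 pairs the cytosolic difference was positive and the mitochondrial one negative, as for arginine (Rars 0.15, Rars2 -0.19), glutamate (Eprs 0.25, Ears2 -0.17) and isoleucine (Iars 0.11, Iars2 -0.13). Phenylalanine showed the reverse for 1 subunit, with Farsa at -0.22 and Fars2 at 0.24, and leucine had the larger value on the mitochondrial side (Lars 0.08, Lars2 0.29). The cytosolic difference was the larger in 10 of 16 pairs; pair differences were not tested.

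**Figure D4:**
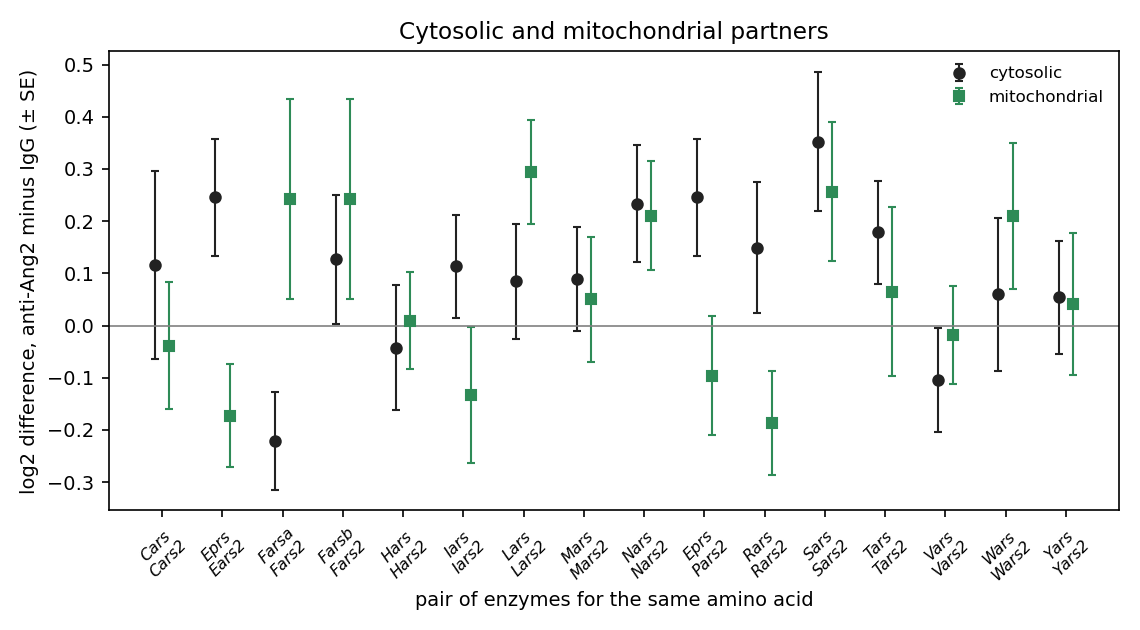
Log2 difference between anti-Ang2 and IgG tumours (± SE from limma) for the cytosolic (circle) and mitochondrial (square) enzyme of each of 16 pairs that charge the same amino acid. Serine and asparagine have both partners above 0.20, and the points of Farsa and Fars2 are the farthest apart, at -0.22 and 0.24.

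Genes of the ATF4 and amino acid response had higher values in anti-Ang2 tumours in 18 of 20 measured members, with a median difference of 0.32 and 11 members at an unadjusted p under 0.05, all higher, against 4.09% of all genes. None passed the adjusted threshold in limma. Atf4 itself, the transcription factor, read 9.63, 9.34, 9.61 and 9.14 in anti-Ang2 replicates 1 to 4, against 8.67, 8.76, 8.78 and 9.00 in IgG replicates 1 to 4. All 4 anti-Ang2 tumours lay above all 4 IgG tumours, a difference of 0.63 (SE 0.13) with a limma adjusted p of 0.435. Nupr1, a stress-response regulator, differed by 0.62, Stc2, a secreted glycoprotein, by 0.36 and Sesn2, an inhibitor of mTORC1 signalling, by 0.29. The cytosolic synthetases, many of them known targets of ATF4, had a median of 0.10 beside this 0.32. The per-tumour mean of the ATF4 list was 0.27, 0.12, 0.21 and -0.00 in anti-Ang2 replicates 1 to 4, against -0.28, -0.27, -0.01 and -0.04 in IgG replicates 1 to 4. Of the eIF2 kinases, Eif2ak4 differed by -0.02, Eif2ak1 by -0.08, Eif2ak3 by -0.17 and Eif2ak2, the kinase that senses double-stranded RNA, by 0.22.

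Skeletal muscle markers varied widely between the tumours. All 16 were measured, with a negative difference for 16 of 16, a median of -1.32 and 12 at an unadjusted p under 0.05, all lower, against 3% of all genes. None passed the adjusted threshold in limma, where the lowest adjusted p was 0.616. Their mean log2 level was 5.96 to 7.41 in anti-Ang2 and 6.25 to 9.47 in IgG tumours. Over the 8 tumours together, all 16 had a mean above the median gene mean of 6.10. In the anti-Ang2 group alone, the means of Myh1 (5.81), Myh2 (5.80), Mylpf (5.87), Casq1 (5.71) and Pygm (5.93) lay below 6.10. Relative to the mean of 8 tumours, the list stood at -0.86, 0.32, -1.03 and -1.13 in anti-Ang2 replicates 1 to 4, against 2.38, 0.93, -0.84 and 0.23 in IgG replicates 1 to 4. IgG replicates 1 and 2, the tumours with most muscle signal, were also the lowest for the cytosolic synthetases and for the ATF4 list. For the cytosolic set, IgG replicate 1 (-0.07) was close to IgG replicate 4 (-0.06). Anti-Ang2 replicate 2, next in muscle signal, stood at -0.03 for the cytosolic set and at 0.12 for the ATF4 list. IgG replicate 1 stood apart in other markers too: on the same relative scale it was the lowest tumour for melanocytic markers (-0.42) and the highest for fibroblast (0.42), adipocyte (0.45) and macrophage (0.40) markers. Without IgG replicate 1 the cytosolic median was 0.08, with 14 of 18 differences positive, and the part of muscle and of the other cell types in these values was otherwise not tested.

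**Figure D5:**
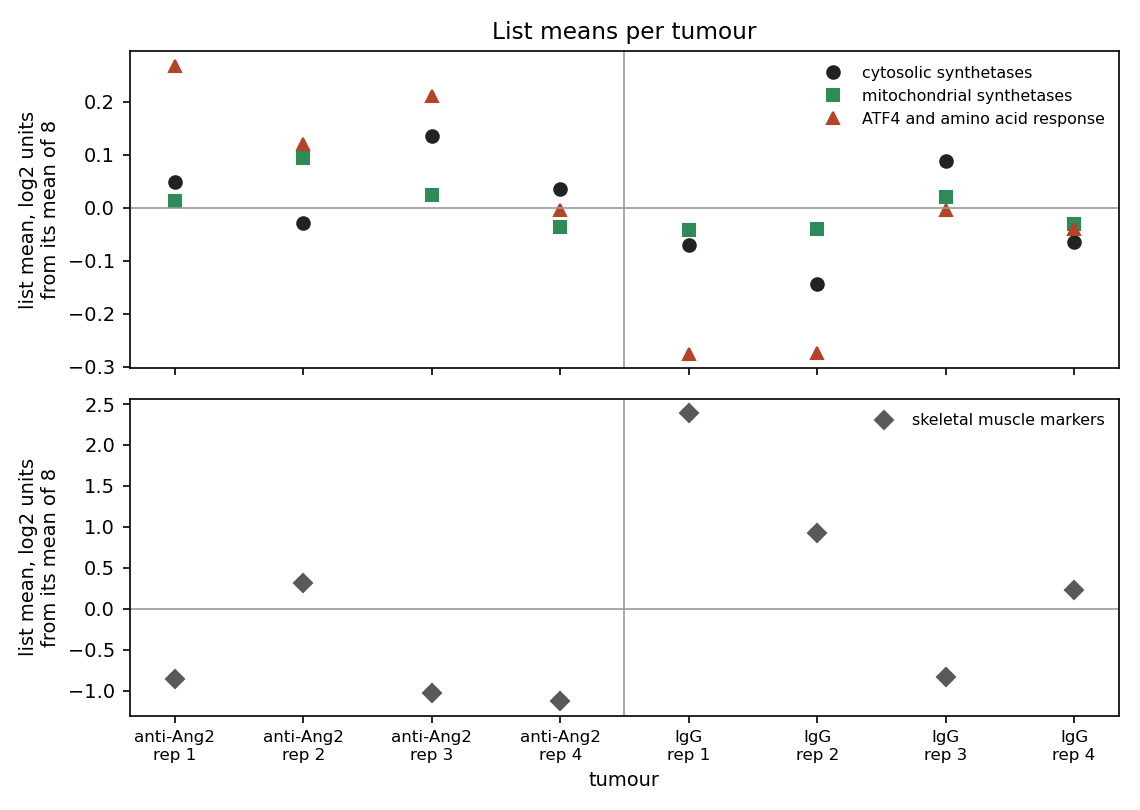
Mean of each list per tumour, in log2 units relative to its own mean over 8 tumours, for cytosolic synthetases (circles), mitochondrial synthetases (squares) and the ATF4 and amino acid response (triangles) above, and skeletal muscle markers (diamonds) below on a wider axis. Anti-Ang2 tumours are left of the line and IgG tumours right; IgG replicates 1 and 2 are lowest for the ATF4 list (-0.28 and -0.27) and highest for muscle (2.38 and 0.93).

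Other genes that serve tRNA charging had more negative than positive differences. Both measured scaffolds of the multi-synthetase complex had negative differences whose 95% intervals held 0, Aimp1 at -0.27 (SE 0.19) and Eef1e1 at -0.21 (SE 0.11). Aimp1 overlapped between the groups, with the highest value of the 8 tumours, 6.77, in anti-Ang2 replicate 1. Aimp2 was not counted, as its probe set is shared. Of 13 measured charging factors, 4 had positive differences, with a median of -0.06. Dtd2, an editing enzyme for mischarged tRNA, read 7.58 ± 0.08 under anti-Ang2 and 7.91 ± 0.15 under IgG (SD, n = 4 each), a difference of -0.33 (SE 0.10). Its groups did not overlap, and its limma adjusted p was 0.585. Ptrh2, a peptidyl-tRNA hydrolase, differed by -0.25, Mtfmt, which formylates the mitochondrial initiator tRNA, by -0.15 and Sepsecs, of selenocysteine synthesis, by 0.14.

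Lists of factors that use the charged tRNA had medians at or below 0. Cytosolic elongation and termination factors had 3 of 8 positive differences and a median of -0.00, with Eef1a1, which delivers charged tRNA to the ribosome, at -0.26 and Eef1g, of its exchange complex, at -0.21. Mitochondrial translation factors had 4 of 10 positive and a median of -0.06, with Tsfm, the exchange factor of mitochondrial elongation factor Tu, at -0.22 and Gfm1, the translocase, at 0.22. Mitochondrial biogenesis regulators had 4 of 10 positive and a median of -0.04, with Pprc1, a coactivator, at -0.30 and Nrf1, the factor of the motif above, at 0.15. No gene of these 3 lists was at an unadjusted p under 0.05.

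The interferon-gamma response, which Wars belongs to, had 9 of 13 measured members with a positive difference and a median of 0.11. No member passed the adjusted threshold in limma, where the lowest adjusted p was 0.662. At an unadjusted p under 0.05, a level reached by 4.09% of all genes as higher and 3% as lower, 3 members were higher, Cxcl9, a chemokine, by 0.46, Tap1, a peptide transporter, by 0.27 and Psmb9, an immunoproteasome subunit, by 0.21. Irf1, a transcription factor of the response, was lower at that level, with a difference of -0.28. Of the 13 members, 8 had a mean above the median gene mean of 6.10. Cxcl9 read 6.20 under anti-Ang2 and 5.74 under IgG, and Psmb9 6.14 and 5.93, so both stood near that median. Tap1 read 7.77 under anti-Ang2 and 7.50 under IgG. Wars read 8.98, 9.23, 9.29 and 9.19 in anti-Ang2 replicates 1 to 4, against 8.70, 9.09, 9.45 and 9.21 in IgG replicates 1 to 4. The groups overlapped across most of their range, with means of 9.17 ± 0.13 under anti-Ang2 and 9.11 ± 0.32 under IgG (SD, n = 4 each).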

How the data were processed

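Biotin-labelled cDNA from 250 ng of total RNA per tumour was measured on Affymetrix mouse arrays, according to the labels' protocols. The values the authors deposited are linear intensities that they had normalized, with 1 value for each probe set on each array; the method is not given in the sources used here. The deposited ratio (fold) divides the anti-Ang2 mean intensity by the IgG mean, and the deposited p-value is unadjusted and equals a Welch test on linear intensities to within 9.85e-13. Since the intensities are linear, log2 was taken with no pseudocount. Of 24648 probe sets, 5 lacked a value, 1389 named several genes and were left out of the fit, and 418 carried a name not used here. Genes kept their array symbols. Current symbols and synonyms of the RefSeq gene table, linked through Entrez IDs, served to find listed genes that the array names otherwise. The annotation of 1973 of the 22836 remaining was cut short. The groups were compared with limma 3.58.1 (lmFit, eBayes) under R 4.3.3 over all 22836 genes, with Benjamini-Hochberg adjustment over all of them and a threshold of 0.05. P-values and 95% intervals come from this fit unless the authors' table, a left-out tumour or another setting is named. The standard errors of the shared probe sets of Aars and Kars come from the same model fitted to all probe sets. The main fit was tested on simulated data with planted log2 differences of 1. The largest synthetase difference was 0.35, and recovery of differences of that size was not tested. The number of arrays limits the precision, and no test compared levels of different probe sets.

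The members, lists and tests were chosen with earlier results of these data known. Full values are given for members with an unadjusted p under 0.05, with groups that do not overlap, or with the largest positive or negative difference of their compartment. Of each other list up to 4 members with the largest moderated t are named, and Atf4; Wars, Qars, Cars and Fars2 are given in more detail for their values or their place in a list. Alternatives were quantile normalization, median centring, a filter on dim genes, all probe sets, trend and robust variances, array weights, blocks, other thresholds, the deposited p-values, the series value table and each tumour left out. Promoter sequences are RefSeq's. Protein sequences were not used here.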

Additional observations from a re-analysis of the deposited data

Results flagged for a closer look

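In 74 groups of 4 values, each a set of 4 tumours for 1 gene or list, 5 held a tumour farther from the other 3 than Dixon's 95% critical ratio allows, and chance alone flags about 1 in 20 groups. Anti-Ang2 replicate 2 was the tumour in 4 of the 5. It read 8.45 for Farsb, the beta subunit of phenylalanyl-tRNA synthetase, above the other anti-Ang2 tumours at 8.00 to 8.03. It read 9.82 for Gars, the glycine enzyme, below the others at 10.26 to 10.27, and 10.25 for Nars, the asparagine enzyme, below the others at 10.56 to 10.62. For Rars2, the mitochondrial arginine enzyme, it read 7.43, above the others at 7.13 to 7.18. Anti-Ang2 replicate 3 read 8.94 for Mars, the methionine enzyme, above the other anti-Ang2 tumours, the lowest of which was at 8.82. Without anti-Ang2 replicate 2, Eprs, Nars, Tars, Lars2, Nars2 and Rars2 were at an unadjusted p under 0.05, and Sars and Farsa were not; in that fit 1420 of 22836 genes were at that level.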

How the results depend on the processing

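No gene passed the adjusted threshold in any of the 11 other settings, an adjusted p under 0.1 and the authors' deposited p-values among them, while 0 to 1 did in limma when 1 tumour was left out, the 1 without anti-Ang2 replicate 2. The count of cytosolic synthetases at an unadjusted p under 0.05 was 2, and 0 to 3 with a tumour left out. It was 1 with dim genes left out, 1 with trend and robust variances, 1 by the authors' deposited p-values and 0 at an unadjusted p under 0.01. The mitochondrial count was 1, and 1 to 3 with a tumour left out. It was 2 with the replicate block, 2 with the tumour number block and 0 at an unadjusted p under 0.01; the replicate block gave 3 for the cytosolic set. The cytosolic median difference of 0.10 ran between 0.050 (anti-Ang2 replicate 3 left out) and 0.19 (IgG replicate 3 left out) and between 0.09 and 0.13 otherwise. The mitochondrial median of 0.03 ran between 0.014 (median centring) and 0.041 outside the fits without 1 tumour. No pairing of the tumours by replicate number was seen. Same-number correlations of deviations were -0.05 to 0.08 over 4 pairs, against -0.15 to 0.15 over 12 other pairs. So few pairs cannot show that pairing is absent. Sars, Farsa, Lars2 and Rars2 kept their signs in every alternative run. The counts of positive differences under alternatives were added after seeing the data: 15 or 16 cytosolic and 9 or 10 mitochondrial outside the fits without 1 tumour. The causes of these shifts were not tested.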

Other observations

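Among markers of other cell types that a tumour piece can hold, macrophage, endothelial and fibroblast lists had no gene past the adjusted threshold in limma. Mrc1, a mannose receptor of macrophages, read 7.77 ± 0.19 under anti-Ang2 and 6.86 ± 0.44 under IgG (SD, n = 4 each), a difference of 0.91 (SE 0.19), and Cd68, a lysosomal protein of macrophages, differed by 0.42 (SE 0.11). The macrophage list as a whole had 6 of 10 positive differences and a median of 0.00. Pecam1, an endothelial adhesion protein, read 8.22 ± 0.13 under anti-Ang2 and 7.84 ± 0.09 under IgG (SD, n = 4 each), a difference of 0.38 (SE 0.09). The endothelial list had 5 of 8 positive differences and a median of 0.18.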
